A study of Mus musculus with 12 samples.

Results

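The myogenic regulators examined here are 10 genes that direct skeletal muscle formation: the MyoD-family factors Myod1, Myf5, Myog and Myf6, the fusion protein gene Mymk, the MEF2 factors Mef2a, Mef2c and Mef2d, and the paired-box factors Pax3 and Pax7. They were chosen by name, from genes whose difference in these same libraries was already known, and were found by gene symbol among the 55385 genes of the count table. All 10 were present, and 8 passed the low-count filter that left 18091 genes for testing; Myf5 and Myf6 did not. Their differences between genotypes are therefore a description, given with standard errors but without p-values.

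RNA-seq of polyadenylated RNA compared 3 libraries from EED-/- mice with 3 libraries from wild-type (WT) mice, all of the C57BL/6 strain and all from whole cerebellum at postnatal day 14. EED-/- is a conditional knockout of Eed (Embryonic Ectoderm Development), a gene for one of the core proteins of Polycomb repressive complex 2, the enzyme complex that methylates histone H3 to give the repressive mark H3K27me3. The Cre driver and the cells in which Eed was deleted are not given in the labels, which also do not say that replicates were separate animals, and the p-values below then reflect only how these libraries vary, which may be technical variation. The 6 ChIP-seq samples of the series were not analysed here.

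MyoD-family proteins are basic helix-loop-helix (bHLH) transcription factors that pair with E proteins and bind the E-box, CANNTG. In embryonic muscle Myf5 and Myod1 commit precursors to the lineage, Myog drives their differentiation, and Myf6 acts in both early and late steps. MEF2 proteins bind A/T-rich sites and work with the MyoD family, Pax3 and Pax7 act upstream in muscle precursors and satellite cells, the stem cells of adult muscle, and Mymk (myomaker) is a membrane protein needed for myoblasts to fuse. Outside muscle, Mef2a and Mef2d are also known from cerebellar granule neurons, Mef2c from microglia and several neuron types, and Pax3 and Pax7 from the dorsal neural tube and midbrain.

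Promoter sequence was taken from the RefSeq table of build GRCm38.p6, which holds windows of 250 bases before to 50 bases after a gene's start, for 6 of the 10 members. The windows of Myog and Pax7 are shown because these 2 genes had no overlap and the largest log2 changes among members with a window, and that of Mef2a because it holds a full MEF2 site. Capitals mark E-boxes (CANNTG, which reads the same on both strands) and MEF2 sites (the MEF2 consensus by name, or a shorter core of TA, 4 bases that are A or T, and TA, searched on both strands). The core was added after the consensus had given no match in Myog.
Myog, chr1:134289754-134290053, plus strand: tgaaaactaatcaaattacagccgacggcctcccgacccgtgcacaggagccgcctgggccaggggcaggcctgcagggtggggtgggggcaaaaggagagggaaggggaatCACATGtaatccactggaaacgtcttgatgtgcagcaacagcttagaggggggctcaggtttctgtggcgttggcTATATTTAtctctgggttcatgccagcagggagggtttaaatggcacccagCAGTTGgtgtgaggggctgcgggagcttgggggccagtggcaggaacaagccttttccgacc
Pax7, chr4:139832919-139833218, minus strand: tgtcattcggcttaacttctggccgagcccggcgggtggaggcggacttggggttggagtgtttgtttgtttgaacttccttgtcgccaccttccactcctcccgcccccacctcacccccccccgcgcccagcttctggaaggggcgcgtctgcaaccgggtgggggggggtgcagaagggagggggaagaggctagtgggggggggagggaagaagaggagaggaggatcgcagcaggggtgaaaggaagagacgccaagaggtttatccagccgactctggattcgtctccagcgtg
Mef2a, chr7:67372809-67373108, minus strand: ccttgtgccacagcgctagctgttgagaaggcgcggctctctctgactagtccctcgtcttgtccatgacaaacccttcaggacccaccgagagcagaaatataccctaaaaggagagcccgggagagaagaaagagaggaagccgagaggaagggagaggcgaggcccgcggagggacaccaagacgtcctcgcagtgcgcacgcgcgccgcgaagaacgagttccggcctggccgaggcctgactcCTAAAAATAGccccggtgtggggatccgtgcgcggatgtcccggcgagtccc
In Myog, E-boxes CACATG and CAGTTG began 138 and 12 bases before the start, and the MEF2 core TATATTTA began 63 bases before it. The Pax7 window held neither motif. It lies around the RefSeq start and does not reach the start of the gene span given below, at 139833528 on the minus strand. The Mef2a site began 2 bases before the start and contains a core match, and no E-box was found in that window. Among 32817 RefSeq windows of the same length, 72.3% held an E-box, 9.33% a MEF2 core and 3.19% the MEF2 consensus, so an E-box is common in such windows. CpG dinucleotides numbered 9 in the Myog window, 17 in the Pax7 window and 27 in the Mef2a window, against a median of 7 over all windows. These matches describe letters only and say nothing of binding.

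Estimated counts summed to 20179578 to 20366173 in EED-/- libraries and 19621814 to 20205811 in WT libraries, so 1 CPM (count per 1000000 counts, scaled with TMM factors) was about 20 counts and levels under 1 CPM rest on few counts. Eed itself measured 11.6, 9.31 and 11.3 CPM in EED-/- cerebella, against 20.1, 26.6 and 23.5 CPM in WT cerebella, a log2 change of -1.12 ± 0.15 (SE; edgeR adjusted p = 0.0015). In whole tissue, fewer cells of a type and less RNA per cell cannot be told apart, here and in every result below. Markers of granule neurons, the main neuron type of the cerebellum, summed to 294 to 502 CPM in EED-/- libraries and 3508 to 4539 CPM in WT libraries, with all 8 markers lower. Across all tested genes, 11.7% were called higher in EED-/- and 14.1% lower at an edgeR quasi-likelihood adjusted p under 0.05 (2125 and 2544 genes). With upper-quartile factors the split was 2828 higher and 1786 lower, and with library size alone 2641 and 1865. The 3 EED-/- libraries all lay above the 3 WT libraries for 20.1% of tested genes and all below for 23.8%.

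Of the 8 tested regulators, 4 passed the threshold as higher in EED-/- (Myog, Mymk, Mef2c and Pax7), 1 as lower (Mef2d), and 3 did not pass it (Myod1, Mef2a and Pax3). These counts stand beside backgrounds of 11.7% and 14.1%, and because the members were chosen with this contrast known nothing is read from them. Libraries of the genotypes did not overlap for 6 of the 8, with EED-/- above WT for 4 and below for 2 (Mef2d and Pax3), beside backgrounds of 20.1% and 23.8%. The median log2 change of the 8 was 0.67, against -0.03 for all tested genes. Myog and Mymk reached the low-count cut-off of 10 counts at the median library size only through their EED-/- libraries, so a gene with so few WT counts is tested only if it is higher in EED-/-.

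**Figure D1:**
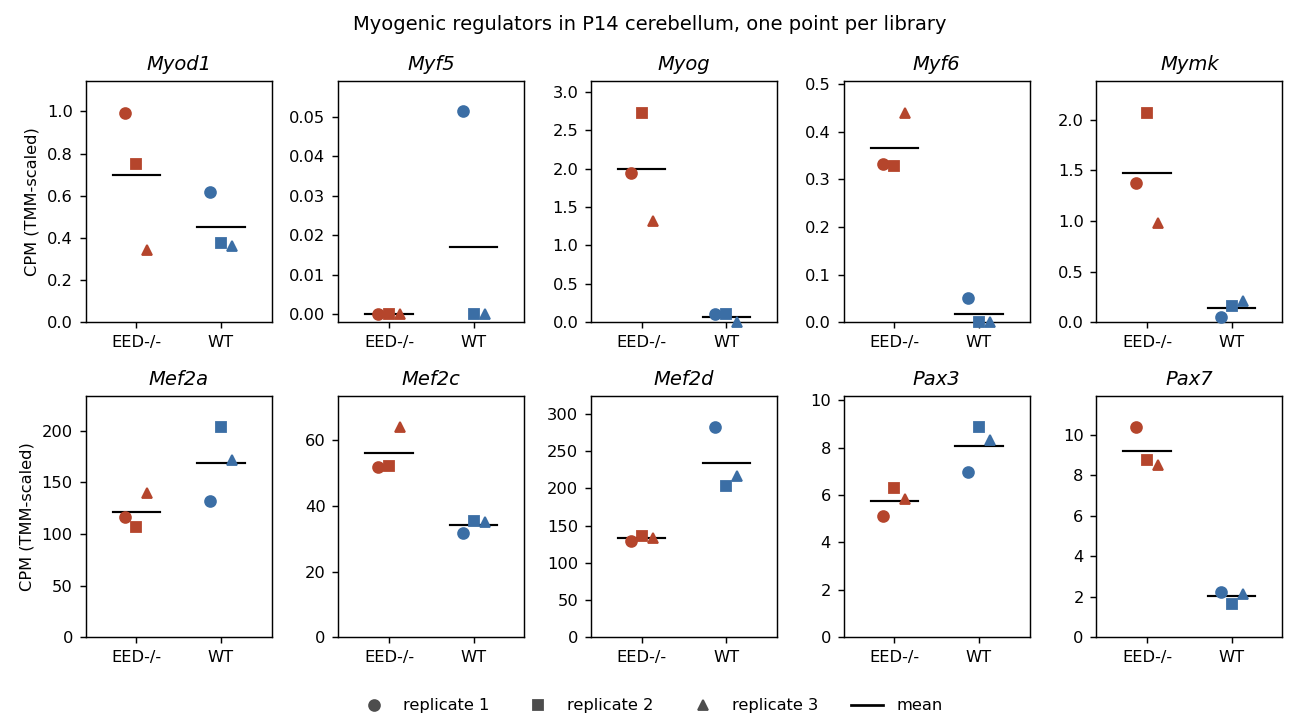
Level of each regulator in CPM (linear axis, different scale per gene), 1 point per library, EED-/- left of WT, with point shapes for replicate numbers and a line at the mean. Myog, Myf6, Mymk, Mef2c and Pax7 lie higher in all 3 EED-/- libraries, Mef2d and Pax3 lower, and Myod1 and Mef2a overlap; the single nonzero point of Myf5 is 1 count.

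Myod1, a determination factor on chromosome 7 (46376474 to 46379099, plus strand, GRCm38), was present at a low level in both genotypes. It had 21, 16 and 7 counts in EED-/- libraries and 12, 7 and 7 counts in WT libraries. That is 0.696 ± 0.329 CPM in EED-/- and 0.451 ± 0.143 CPM in WT (SD, n = 3 each). The lowest EED-/- library lay below all 3 WT libraries in CPM, so the genotypes overlapped, and the log2 change of 0.62 ± 0.46 (SE) did not pass the threshold.

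Myf5, the other determination factor, was close to undetected. It had 0 counts in all 3 EED-/- libraries and 1, 0 and 0 counts in WT libraries, and no fold is given, since both groups are under the floor of 3 counts. A count of 0 in an EED-/- library leaves room for a level of up to 0.141 to 0.147 CPM, the value of 3 counts in that library, which covers counting error only. Myf5 (107482908 to 107486134) and Myf6 (107492853 to 107494737) lie side by side on the minus strand of chromosome 10, with 6718 bases between them.

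Myf6 differed from its neighbour in having counts in every EED-/- library. It had 7, 7 and 9 counts there, against 1, 0 and 0 counts in WT libraries, and the genotypes did not overlap. Summed over libraries that is 23 counts in EED-/- and 1 in WT, a depth-scaled ratio of 21.0 with a 95% exact conditional binomial interval of 3.42 to 867 that covers counting error only. Myf6 fell below the low-count filter; it was called higher when the filter was dropped and with DESeq2 (log2 change 4.32).

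Myog, the differentiation factor whose promoter is printed above, lies on chromosome 1 (134289989 to 134292548, plus strand). It had 41, 58 and 27 counts in EED-/- libraries and 2, 2 and 0 counts in WT libraries. In CPM these are 1.94, 2.73 and 1.32 in EED-/- and 0.103, 0.107 and 0 in WT. All 3 EED-/- libraries stood far above every WT library, with replicate 2 the highest and replicate 3 the lowest. The log2 change was 4.72 ± 0.60 (SE), 26.4-fold, and its denominator is 4 counts in all. Myog thus outnumbered Myod1 in every EED-/- library, while in every WT library Myod1 had more counts than Myog.

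Summed, the MyoD family had 69, 81 and 43 counts in EED-/- libraries, against 16, 9 and 7 counts in WT libraries. Most of the EED-/- sum was Myog, and most of the WT sum was Myod1. Even at its highest the family came to 3.81 CPM, in EED-/- replicate 2.

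Mymk (chromosome 2, 27061636 to 27072179, minus strand) followed Myog across the EED-/- libraries. It had 29, 44 and 20 counts in EED-/- libraries and 1, 3 and 4 counts in WT libraries, or 1.47 ± 0.552 CPM and 0.140 ± 0.0799 CPM (SD, n = 3 each). The genotypes did not overlap, and the log2 change was 3.35 ± 0.51 (SE), 10.2-fold. The ratio of Mymk to Myog counts was 0.707, 0.759 and 0.741 in EED-/- replicates 1 to 3. In WT it was 0.5 and 1.5 in replicates 1 and 2, from counts of 1 to 3, and replicate 3 had no Myog count. Mymx (myomixer), which encodes the small protein that completes fusion with myomaker, had 1 count in EED-/- libraries and 0 in WT libraries; it was singled out after its values were seen.

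The MEF2 genes had the highest levels of the regulators per length in both genotypes, and they differed in direction. Mef2c, on the plus strand of chromosome 13 (83504034 to 83667080), measured 51.9, 52.2 and 63.9 CPM in EED-/- cerebella and 31.7, 35.2 and 35.1 CPM in WT cerebella. Every EED-/- library exceeded every WT library, and the log2 change was 0.72 ± 0.12 (SE), 1.65-fold. Markers of microglia, a cell type known to express Mef2c, summed to 291, 304 and 324 CPM in EED-/- and 171, 169 and 163 CPM in WT, with 6 of 8 higher and none of the 8 at 0. Their part in the Mef2c difference was not tested.

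Mef2d (chromosome 3, 88142372 to 88172086, plus strand) measured 130, 136 and 133 CPM in EED-/- cerebella and 282, 203 and 217 CPM in WT cerebella. It was lower in every EED-/- library, with a log2 change of -0.82 ± 0.14 (SE). The spread was 2.92 CPM in EED-/- and 42.3 CPM in WT (SD, n = 3 each), and WT replicate 1 stood above the other WT libraries. An antisense transcript, 1700113A16Rik, overlaps Mef2d with 19 to 54 counts in EED-/- libraries and 34 to 47 in WT libraries, and reads of the 2 strands cannot be told apart if strand was not used in counting.

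Mef2a (chromosome 7, 67231163 to 67372858, minus strand) measured 116, 106 and 140 CPM in EED-/- cerebella and 132, 203 and 171 CPM in WT cerebella. EED-/- replicate 3 lay above WT replicate 1, so the genotypes overlapped, and the log2 change of -0.48 ± 0.17 (SE) did not pass the threshold. The call turned with the setting: Mef2a was lower without the low-count filter, with DESeq2 and without WT replicate 1 (log2 change -0.58). The authors' deposited table, with the columns of a DESeq2 result, lists it at a log2 change of -0.46 and with an adjusted p under 0.05. Mef2a overlaps Lysmd4 on the opposite strand, which had 588 to 659 counts in EED-/- libraries and 633 to 681 in WT libraries. The granule neuron markers given above were lower in EED-/- by a larger factor than Mef2d, and their part in the values of Mef2d and Mef2a was not tested.

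With Mef2c higher and Mef2d lower in EED-/-, the proportions of the MEF2 genes differed between genotypes. Mef2c counts were 0.422 ± 0.0515 of Mef2d counts in EED-/- and 0.149 ± 0.0325 in WT (SD, n = 3 each), without overlap. Relative to Mef2a, Mef2c counts were 0.465 ± 0.0232 in EED-/- and 0.206 ± 0.0333 in WT, also without overlap. The ratio of Mef2a to Mef2d was 0.911 ± 0.136 in EED-/- and 0.753 ± 0.268 in WT, and these overlapped. The 3 genes summed to 298, 294 and 337 CPM in EED-/- libraries and 446, 442 and 423 CPM in WT libraries. The fourth family member, Mef2b, was below the filter with 14 counts in EED-/- and 10 in WT libraries, and is named after its values were seen.

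Of the paired-box members, Pax7 passed the threshold and Pax3 did not. Pax7 (chromosome 4, 139737062 to 139833528, minus strand) measured 10.4, 8.75 and 8.52 CPM in EED-/- cerebella and 2.26, 1.66 and 2.12 CPM in WT cerebella. The lowest EED-/- library was well above the highest WT library, and the log2 change was 2.19 ± 0.19 (SE), 4.56-fold. Pax3 (chromosome 1, 78101267 to 78197134, minus strand) measured 5.11, 6.30 and 5.82 CPM in EED-/- cerebella and 6.98, 8.85 and 8.32 CPM in WT cerebella. Its genotypes did not overlap, EED-/- being lower, but the log2 change of -0.49 ± 0.17 (SE) did not pass the threshold. Pax7 counts were 1.63 ± 0.350 times Pax3 counts in EED-/- and 0.255 ± 0.0678 times in WT (SD, n = 3 each), so Pax7 had more counts than Pax3 in every EED-/- library and in no WT library.

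**Figure D2:**
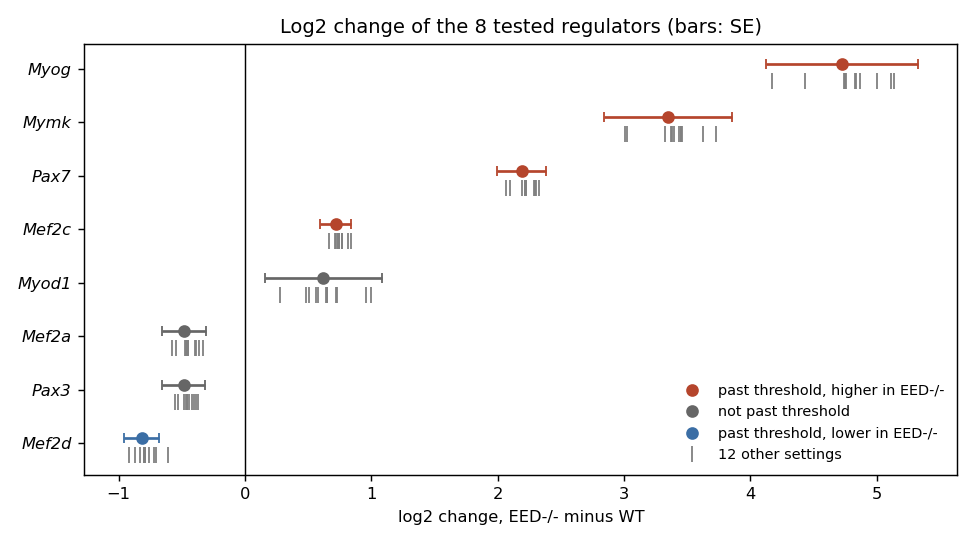
Log2 change (EED-/- minus WT) of the 8 tested regulators with SE bars, coloured by whether the edgeR threshold was passed, and ticks below for 12 other settings of normalization, filter, test and left-out library. Ticks keep the sign of the point for every gene; those of Myog run from 4.17 to 5.14 and those of Mef2a from -0.58 to -0.33.

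Scaled by exon length, the 3 MEF2 genes ranked at the top in the same order in both genotypes, and the order lower down differed. In EED-/- libraries the mean CPM per kb of exon was 22.2 for Mef2d, 8.23 for Mef2a, 3.56 for Mef2c, 1.57 for Pax7, 1.34 for Myog, 0.975 for Mymk, 0.929 for Pax3, 0.374 for Myod1, 0.291 for Myf6 and 0 for Myf5. Neighbours whose EED-/- libraries overlapped, and which are not ordered beyond their spread, were Pax7 and Myog, Myog and Mymk, Mymk and Pax3, and Myod1 and Myf6. In WT libraries the order was Mef2d at 39.1, Mef2a at 11.5, Mef2c at 2.17, Pax3 at 1.30, Pax7 at 0.344, Myod1 at 0.242, Mymk at 0.0924, Myog at 0.0468, Myf6 at 0.0135 and Myf5 at 0.00821 CPM per kb. There the overlapping neighbours were Pax7 and Myod1, Mymk and Myog, Myog and Myf6, and Myf6 and Myf5. Myog stood above Myod1 in all EED-/- libraries on this scale and below it in all WT libraries.

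**Figure D3:**
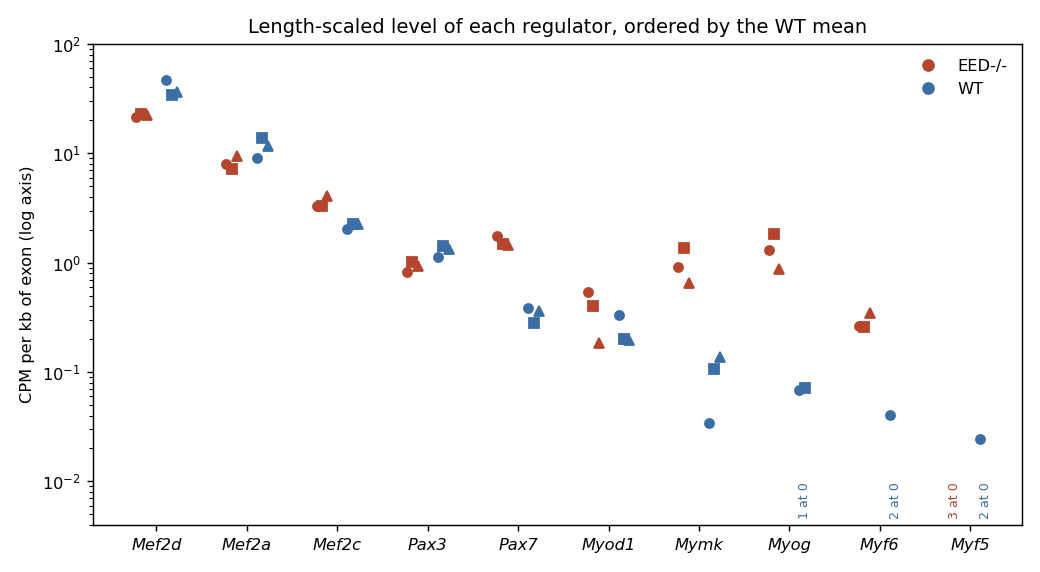
CPM per kb of exon (log axis) of each regulator in each library, EED-/- left of WT for each gene, genes ordered by the WT mean; libraries at 0 are counted at the foot. Mef2d, Mef2a and Mef2c lead in both genotypes, and Myog and Mymk reach the range of Pax3 and Pax7 in EED-/- libraries.

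Genes whose profile over the 6 libraries was most like that of a member were ranked by the root-mean-square difference of centred log2 CPM. This likeness is a description over 6 libraries that share genotype. Closest to Myog were Chrng (0.344) and Chrnd (0.358), which encode the fetal gamma and the delta subunit of the muscle acetylcholine receptor, and Vax2 (0.368), a homeobox gene of the ventral eye. Chrng had 89 counts in EED-/- libraries and 1 in WT libraries, a ratio of 81.4 (95% interval 14.2 to 3253, counting error only), and Chrnd had 69 and 0 counts, at least 21.0-fold higher against a floor of 3 counts over the group. Closest to Mymk were Dmrta2 (0.0922), Myom2 (0.245), which encodes a sarcomeric M-band protein, and Nr2e1 (0.282), a nuclear receptor of neural stem cells. Closest to Pax7 were Runx3 (0.135), a runt-domain factor, Tnnc1 (0.157), the slow and cardiac troponin C gene, and Hspb7 (0.170).

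The remaining members had close neighbours of smaller change. For Mef2c these were Cfap46, Entpd3 and Nefm, the medium neurofilament gene, at 0.0357 to 0.0537. For Mef2d they were Fam53b, Foxj2 and Clip3 at 0.0416 to 0.0470, and for Mef2a Pqlc3, Epc2 and Zfp148 at 0.0247 to 0.0391. Pax3 was closest to Gm7008, A430033K04Rik and Nhlrc2 (0.0525 to 0.0648), and Myod1 to Gm715, Ube2l6 and Rplp0 (0.0866 to 0.158). Genes of small change have small differences on this measure in general, so its size is not comparable between members.

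Genes of the differentiated muscle fibre, which the MyoD and MEF2 factors activate in muscle, were largely higher. Of 64 listed, 60 were tested; 48 were higher and 2 lower in EED-/-, against 11.7% and 14.1% of all tested genes, and the median log2 change was 1.94 against -0.03. Among the 48, 44 were at least 2-fold and 21 at least 8-fold higher. In 30 of the 60 the low-count cut-off was reached only through EED-/- libraries, which favours genes that are higher there, and the list was drawn up with earlier results of these data known. The median was also 1.94 with the 2 genes that had no WT count set at their bound. Both bounds lie above that median, so it could not have changed. The list summed to 650, 708 and 610 CPM in EED-/- libraries and 320, 317 and 328 CPM in WT libraries, a ratio of means of 2.04. Genes with a high WT level weigh most in this sum, so it changes less than the median gene. Among them, picked after their values were seen, were Pygm, Mybpc1 and Ryr1, at 66.7, 41.4 and 35.2 CPM in WT. Their log2 changes were 0.60, -0.28 (not called) and 0.64. Among EED-/- libraries the sum was highest in replicate 2 and lowest in replicate 3, as were Myog and Mymk. This order is not particular to muscle genes. The sums of the meningeal fibroblast, Bergmann glia, fusion, satellite cell and cofactor lists described below had it too, and those of the other single lists did not.

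The 4 fibre genes named here had the smallest adjusted p of the list, with myoglobin (Mb) sharing that of Tnnt1. Myh7, the slow myosin heavy chain, measured 33.5 ± 4.33 CPM in EED-/- and 3.28 ± 0.575 CPM in WT (SD, n = 3 each; log2 change 3.35 ± 0.18 SE, edgeR adjusted p = 3.66e-05). Myh8, the perinatal myosin heavy chain, measured 26.9 ± 6.75 CPM in EED-/- and 0.383 ± 0.0660 CPM in WT (log2 change 6.11 ± 0.28 SE, edgeR adjusted p = 3.66e-05). Acta1, skeletal alpha-actin, measured 21.8 ± 3.98 CPM in EED-/- and 1.70 ± 0.198 CPM in WT (log2 change 3.68 ± 0.20 SE, edgeR adjusted p = 3.66e-05). Tnnt1, slow troponin T, measured 14.5 ± 1.88 CPM in EED-/- and 0.731 ± 0.236 CPM in WT (log2 change 4.30 ± 0.25 SE, edgeR adjusted p = 4.03e-05). For all 4 genes every EED-/- library lay above every WT library. Myh8, with 6, 8 and 8 WT counts, reached the low-count cut-off only through EED-/- libraries. Tnnt1, with 10, 13 and 19 WT counts, fell just short of it in WT replicate 1. Both were thus tested because of their EED-/- counts, and no support is read from their p-values.

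Further fibre genes are named after their values were seen. Myh3, the embryonic myosin heavy chain, had 1730 counts in EED-/- libraries and 26 in WT libraries, while the adult fast forms Myh1 and Myh4 had 57 and 54 counts in EED-/- libraries, against 8 and 3 in WT libraries. These myosin genes are close copies side by side on chromosome 11, and how shared reads were split between them depends on the counting model. Mb had 827 counts in EED-/- and 18 in WT libraries, and Ckm, muscle creatine kinase, had 207 and 2 counts, a ratio of 94.7 (95% interval 25.9 to 787, counting error only). Xirp2, an actin-binding protein of muscle, had 53 counts in EED-/- libraries and 0 in WT libraries, at least 16.2-fold higher against the same floor. The 2 genes called lower were Jph1, a junctophilin, at 8.04 CPM in EED-/- and 30.1 CPM in WT, and Mrln, the myoregulin gene, at 0.319 CPM in EED-/- and 3.07 CPM in WT.

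**Figure D4:**
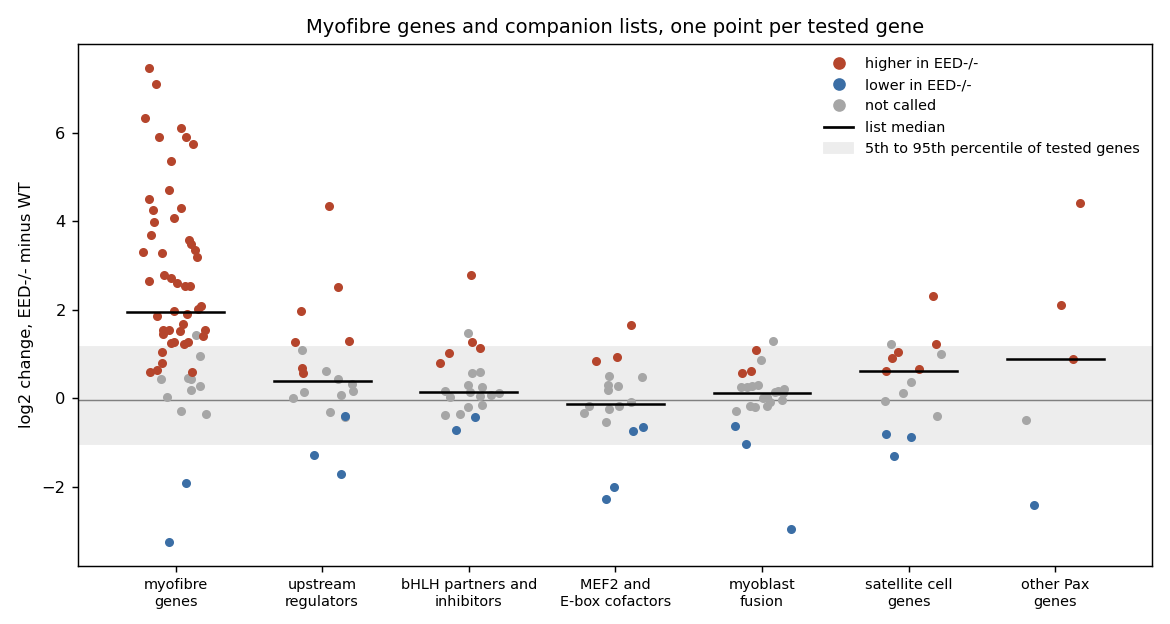
Log2 change (EED-/- minus WT) of each tested gene of the myofibre list and of 6 companion lists, coloured by call, with list medians and a band for the 5th to 95th percentile of all tested genes. Myofibre genes reach 7.46, a fitted value of a gene with no WT count that depends on the prior count; the medians of the companion lists lie between -0.12 and 0.88.

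The companion lists of regulators, fusion, satellite cell and Pax genes were mixed. Of 104 tested genes, 27 were higher and 16 lower in EED-/-, against 11.7% and 14.1% of all tested genes, and the median log2 change was 0.16. Counts of the single lists and of the cell type marker lists below stand beside the same shares. Without EED-/- replicate 1 the lower count was 9, and without EED-/- replicate 3 it was 10. As for the fibre genes, these lists were drawn up with earlier results known. The low-count cut-off was reached only through EED-/- libraries in 3 of 20 upstream regulators (Six2 among them), 4 of 22 bHLH partners and inhibitors (Fst among them), 2 of 24 fusion genes, 2 of 15 satellite cell genes and 1 of 5 other Pax genes, which favours calls of higher genes there too.

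Of 20 tested upstream regulators of the muscle lineage, 7 were higher and 3 lower. Eya1, a transcriptional coactivator of sine oculis-type homeobox factors, measured 14.7 ± 0.874 CPM in EED-/- and 5.99 ± 0.0867 CPM in WT (edgeR adjusted p = 0.000423). Six2, the gene of a homeobox factor of that type, had a log2 change of 2.52 ± 0.39 SE and Eya4 one of 1.96 ± 0.32 SE (edgeR adjusted p = 0.00269 and 0.00344). Six2 was tested because of its EED-/- counts, and no support is read from its p-value. The lower genes, named after their values were seen, were Lbx1, known in migrating limb muscle precursors and spinal neurons, Tbx6 and Eya3. Eya3 lost its call in 11 of 12 other settings, Tbx6 with DESeq2 and without EED-/- replicate 1, and Lbx1 without EED-/- replicate 3; 1 gene of the list was lower with DESeq2 and without EED-/- replicate 1.

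Among 22 tested bHLH partners and inhibitors, 5 were higher and 2 lower. Fst, which encodes the myostatin and activin antagonist follistatin, measured 3.50 ± 0.135 CPM in EED-/- and 0.499 ± 0.341 CPM in WT (edgeR adjusted p = 0.00327). Fst too was tested because of its EED-/- counts, and no support is read from its p-value. Heyl, a Notch target gene, measured 23.9 ± 4.0 CPM in EED-/- and 10.8 ± 1.07 CPM in WT (edgeR adjusted p = 0.00165). The counts leaned on single libraries: without EED-/- replicate 1, EED-/- replicate 2, WT replicate 2 or WT replicate 3, 3 were higher, and without EED-/- replicate 1, EED-/- replicate 3 or WT replicate 3, 0 were lower (1 without EED-/- replicate 2 or WT replicate 1). Mdfic, related to a MyoD-family inhibitor, had a log2 change of 0.81 ± 0.20 SE (edgeR adjusted p = 0.0198) and lost its call without EED-/- replicate 1, EED-/- replicate 3 or WT replicate 3. Hey1, another Notch target, had a log2 change of -0.42 ± 0.11 SE (edgeR adjusted p = 0.0236) and lost its call in 9 of 12 other settings. The E proteins Tcf3 and Tcf12 did not pass the threshold, at log2 changes of -0.37 and -0.20, and Tcf4 was lower at -0.72, a call lost without any 1 of the EED-/- libraries or WT replicate 3. Inhibitors of the Id family, Id1 to Id4, lay between 0.04 and 0.25 and did not pass. The E proteins and Id genes were picked after their values were seen.

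Cofactors of MEF2 and of E-box factors numbered 18 tested, with 3 higher (Hdac9, Vgll3 and Sik1) and 4 lower (Tead4, Hdac4, Myocd and Smarcd3). Of 4 class IIa histone deacetylases, which bind MEF2 proteins and hold back their targets, 1 was higher, 1 lower and 2 were not called (Hdac5 and Hdac7, at log2 changes of -0.23 and -0.33). Hdac9 measured 36.1 ± 4.22 CPM in EED-/- and 18.9 ± 2.97 CPM in WT, and Hdac4 40.8 ± 1.09 CPM in EED-/- and 68.6 ± 7.30 CPM in WT (edgeR adjusted p = 0.00335 and 0.00243). Tead4, a TEA-domain factor of muscle and other tissues, measured 1.17 ± 0.241 CPM in EED-/- and 5.69 ± 0.467 CPM in WT (edgeR adjusted p = 0.000317), and Vgll3, a TEAD cofactor, had a log2 change of 1.66 ± 0.29 SE (edgeR adjusted p = 0.00437). The higher count was 6 with upper-quartile factors, 5 with library size alone and 6 without EED-/- replicate 3. Smarcd3 lost its call without EED-/- replicate 1, EED-/- replicate 3, WT replicate 1 or WT replicate 3.

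Of 24 tested fusion genes, 3 were higher (Dysf, Nfatc2 and Adam12) and 3 lower (Cdh15, Kirrel3 and Ehd1). These counts lie near the 11.7% and 14.1% of all tested genes, and nothing is read from them. Cdh15, M-cadherin, an adhesion protein of myoblasts that is also known from cerebellar granule neurons, measured 3.61 ± 0.814 CPM in EED-/- and 27.9 ± 4.86 CPM in WT (edgeR adjusted p = 7.59e-05), opposite to Mymk. Kirrel3 measured 79.5 ± 3.25 CPM in EED-/- and 162 ± 28.5 CPM in WT (edgeR adjusted p = 0.00149). Dysf, dysferlin, which acts in membrane repair, measured 15.9 ± 1.62 CPM in EED-/- and 7.47 ± 0.942 CPM in WT (edgeR adjusted p = 0.00189), and Nfatc2 had a log2 change of 0.58 ± 0.12 SE (edgeR adjusted p = 0.00792). With upper-quartile factors 5 fusion genes were higher. Adam12 lost its call without EED-/- replicate 2 or WT replicate 3, and Ehd1 without EED-/- replicate 1 or EED-/- replicate 3.

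Among 15 satellite cell genes, the cells that Pax7 marks in muscle, 6 were higher and 3 lower. Calcr, the calcitonin receptor gene, had a log2 change of 1.22 ± 0.19 SE and Vcam1 one of 0.91 ± 0.11 SE (edgeR adjusted p = 0.00259 and 0.000988). Megf10 had a log2 change of -1.31 ± 0.14 SE and Itga7, integrin alpha 7, one of -0.80 ± 0.12 SE (edgeR adjusted p = 0.000467 and 0.00217). The third lower gene, Gas1, is named after its values were seen, and lost its call in 6 of 12 other settings, among them the removal of any 1 EED-/- library or of WT replicate 1.

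Of the other Pax genes, 5 were tested, with Pax1, Pax5 and Pax8 higher and Pax6 lower. Pax5, a gene of the midbrain-hindbrain boundary and of B cells, measured 10.5 ± 2.49 CPM in EED-/- and 2.44 ± 1.33 CPM in WT (edgeR adjusted p = 0.00719). Pax1, a gene of the sclerotome, had 78 counts in EED-/- and 3 in WT libraries, a ratio of 23.8 (95% interval 7.85 to 118, counting error only). Pax6, known from granule neurons and their precursors, measured 25.3 ± 2.84 CPM in EED-/- and 134 ± 6.66 CPM in WT (edgeR adjusted p = 3.66e-05). Pax8 had a log2 change of 0.88 ± 0.24 SE (edgeR adjusted p = 0.0297), a call lost in 7 of 12 other settings.

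Markers of other cell types that a cerebellar sample could hold moved beside the regulators. Markers of meningeal fibroblasts summed to 416 to 567 CPM in EED-/- libraries and 187 to 254 CPM in WT libraries, with all 8 higher (5 of 8 without WT replicate 3) and none at 0. Smooth muscle and mural markers summed to 322 to 377 CPM in EED-/- and 212 to 274 CPM in WT, with 2 of 7 tested higher and none lower (1 higher without EED-/- replicate 2, EED-/- replicate 3 or WT replicate 3, and 5 with upper-quartile factors). Of 4 tested heart muscle markers, Tnnt2, cardiac troponin T, was higher with 1022 counts in EED-/- and 72 in WT libraries, and so was Myh6, the alpha myosin heavy chain, at 13.1 CPM in EED-/- and 4.30 CPM in WT. Ryr2, a calcium release channel also found in neurons, was lower at 133 CPM in EED-/- and 215 CPM in WT, and made up most of the list's sum of 152 to 182 CPM in EED-/- and 213 to 239 CPM in WT. Nkx2-5, a cardiac homeobox gene below the filter, had 27 counts in EED-/- and 0 in WT libraries, and Myl7, the atrial myosin light chain, was at 0 in all libraries. Of the skeletal fibre genes, Myh3, Myh8 and Ckm, picked after their values were seen, were at or below 0.697 CPM in every WT library. Other genes of that list had higher WT means, among them Myh7 at 3.28 CPM, Ttn at 2.94 CPM and Acta1 at 1.70 CPM. The part of any such cells in the values of Myog, Mymk, Myf6 and Pax7 was not tested.

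The remaining marker lists ran both ways. Bergmann glia markers summed to 736 to 880 CPM in EED-/- and 1762 to 2005 CPM in WT, with 4 of 6 lower. Purkinje cell markers summed to 3622 to 5148 CPM in EED-/- and 3619 to 4424 CPM in WT, with 1 of 8 lower, a call that most other settings lost, and 1 or 2 higher in 6 of the 12. Molecular layer interneuron markers had 2 of 8 higher (1 without EED-/- replicate 1) and 4 lower, with sums of 285 to 318 CPM in EED-/- and 411 to 484 CPM in WT. Schwann cell markers had 3 tested and none called, with sums of 35.2 to 61.0 CPM in EED-/- and 38.3 to 53.5 CPM in WT.

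**Figure D5:**
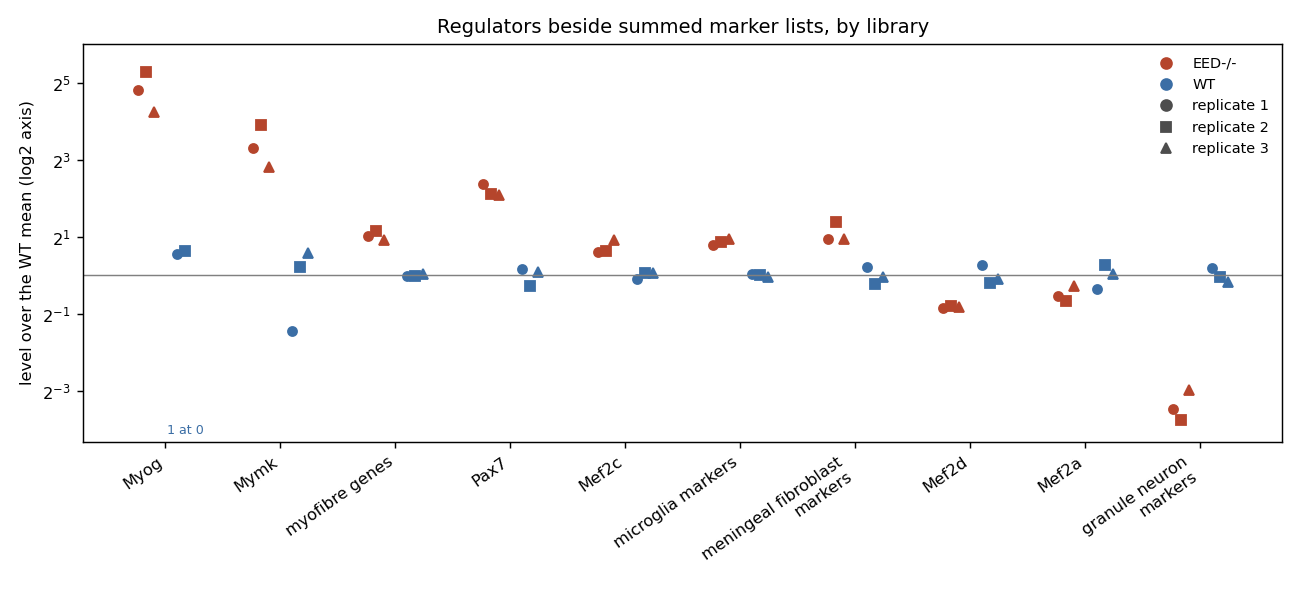
Level in each library divided by the WT mean (log2 axis), EED-/- left of WT. Shown are the regulators Myog, Mymk, Pax7, Mef2c, Mef2d and Mef2a and the summed CPM of the myofibre, microglia, meningeal fibroblast and granule neuron lists. Myog and Mymk stand farthest above the WT mean, the microglia and meningeal sums lie near the myofibre sum and Mef2c, and the granule neuron sum lies farthest below, under Mef2d and Mef2a. The myofibre sum is weighted by genes with a high WT level and changes less than the median gene of that list.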

How the data were processed

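Polyadenylated RNA of 6 cerebellum libraries (3 EED-/-, 3 WT) was analysed, grouped by titles and genotype labels. The authors deposited estimated counts (expected counts) per gene, not scaled between libraries. Salmon 1.1.0, Trimmomatic 0.36, DESeq2 1.26.0 and build GRCm38 are listed in the submitters' processing notes, with no order or role. The labels and headers do not state whether counting used strand. A second deposited table, with the columns of a DESeq2 result per the file headers, gives a log2 fold change, p-values and adjusted p-values per gene. In it the authors also give a mean level, a signal of counts scaled by size factors, and a standard error, recorded here as a score. Gene symbols came from it, and its adjusted p-value is 1 for 20212 genes with no p-value. The same entry is given for 14559 genes with a p-value, Myf5 and Myf6 among them, where it may stand for a missing value.

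Counts were rounded to whole numbers, filtered with filterByExpr and tested with edgeR 4.0.16 in R 4.3.3 (TMM, quasi-likelihood F test, genotype as the only term, two-sided, Benjamini-Hochberg adjusted p under 0.05 over 18091 genes). SEs were obtained as the size of the log2 change over the square root of F. CPM used TMM-scaled library sizes, and likeness log2 CPM with a prior count of 2. Exon lengths and positions were those of GENCODE for GRCm38. Replicate pairs differed beyond sampling noise, with a chi-square over its degrees of freedom of 9.11 to 61.4. The procedure was tested on simulated data. Floors are 3 counts over a group, or per library where stated, and intervals and floors cover counting error only, as reads without molecular identifiers are not independent molecules.

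The members and lists were chosen with earlier results of these data known. The naming rule took all members, Eed, up to 4 called genes per companion or myofibre list with the smallest adjusted p, and the 3 genes most like each tested member; genes outside it, including the cell type markers named and the called genes that complete short counts (Sik1, Myocd, Smarcd3, Adam12, Ehd1), were named after their values were seen. A gene that the rule took is not reported here. Alternatives were RLE, upper-quartile and library-size scaling, no low-count filter, DESeq2 1.42.0, a replicate block and each library left out.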

Additional observations from a re-analysis of the deposited data

How the results depend on the processing

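All 8 tested regulators kept their direction in all 12 other settings. Myog, Mymk, Mef2c, Mef2d and Pax7 were called in each, and Myod1 and Pax3 in none. These settings reuse the libraries in which the members' differences were already known, so nothing is read from the calls. Myog and Mymk also reached the low-count cut-off only through EED-/- libraries. Regulators called higher numbered 4 with any library left out and lower 1 to 2; 2 were lower with no low-count filter and with DESeq2, where Mef2a passed, and 5 were higher in both, where Myf6 entered. Leaving out 1 library gave 1205 to 2176 genes higher and 1335 to 2476 lower over all genes, 40 to 49 myofibre genes higher with 2 lower, and 20 to 28 companion genes higher with 9 to 16 lower. Over all genes the lowest counts came without EED-/- replicate 1 (1205 higher, 1335 lower). Leaving out EED-/- replicate 2 gave 1337 higher, leaving out EED-/- replicate 3 gave 1677 lower, and leaving out WT replicate 3 gave 1324 higher and 1640 lower. The cause was not tested.

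The median log2 change over all genes was 0.09 with upper-quartile factors and 0.07 with library size alone, against -0.03 with TMM; relative to that shift the members kept their direction. Correlations of deviations between EED-/- and WT libraries of the same replicate number were 0.0276, -0.233 and -0.00125, against -0.188 to 0.198 for unlike numbers. With 3 libraries per genotype these values cannot decide whether the numbers pair the samples. With a replicate block, 1505 genes were higher and 1706 lower, 4 regulators higher and 1 lower, 42 myofibre genes higher and 2 lower, and 21 companion genes higher and 14 lower; 3 bHLH partners were higher and 1 lower. At about 20 counts per CPM, the depth limits Myod1, Myf5, Myf6 and the WT levels of Myog and Mymk, where a few counts set the fold.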
